A study of Mus musculus with 4 samples.

Results

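Family 4 of the cytochrome P450 enzymes was examined in mouse liver, over all probe sets that the platform annotation assigns to Cyp4a10, Cyp4a14, Cyp4f13, Cyp4f14, Cyp4v3 or Cyp4b1. Of these 6 genes 5 had a probe set of their own, 6 probe sets in all among 12488 on the array, because Cyp4f13 had 2; at the level of genes they are 5 of 5510 tested. Cyp4f14 was not analysed here. All 6 probe sets were bright enough to be tested.

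The samples were livers of control mice and of mice labelled Hepatic reductase null, with 2 Affymetrix MG_U74Av2 arrays per genotype, numbered 7 and 8 in each. The titles call the control samples WT. Age, sex, strain and diet are not given in the labels used here. The labels state that RNA of 3 animals of a genotype was pooled for each experiment, while the control titles name a mouse, so pooled and single livers cannot be told apart, and p-values measure the spread between these arrays. The reductase is taken to be NADPH-cytochrome P450 oxidoreductase (Por). In the known line of this name the gene is removed by a Cre recombinase under the albumin promoter, so that hepatocytes lose it and other liver cells keep it; the labels name neither allele nor promoter. Por was not analysed here, so the genotype labels were not checked against its level.

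P450 enzymes of family 4 put a hydroxyl group on the last carbon, or the omega end, of fatty acids and eicosanoids, and they draw the electrons for this step from the reductase. Alcohol and aldehyde dehydrogenases turn the product into a dicarboxylic acid, which peroxisomes shorten by beta oxidation. In liver the Cyp4a genes are classical targets of the nuclear receptor PPAR-alpha and respond to fasting, while Cyp4f enzymes are known for inactivating leukotrienes and for trimming the side chain of vitamin E.

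None of the 6 probe sets passed the threshold in limma (adjusted p under 0.05 over 7241 probe sets), where 0.387% of all probe sets passed (0.304% higher and 0.0829% lower). At an unadjusted p under 0.05 there were 2 of the 6, both lower in null liver, against 12.6% of all probe sets (6.16% higher and 6.46% lower). Cyp4v3 came closest, with signals 1.58-fold lower in null liver. Cyp4a10 and Cyp4a14 had the larger mean differences, in the other direction, but their control arrays differed from each other by more than the genotypes did. Null and control arrays did not overlap for 2 of the 6 probe sets, those of Cyp4v3 and the brighter of Cyp4f13, both with the null arrays below. Over all probe sets 43.8% did not overlap, with the null arrays below for 23.4% and above for 20.4%. The mean difference between genotypes was larger than the difference between the control arrays for the same 2 of 6, against 49.5% of all probe sets.

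**Figure D1:**
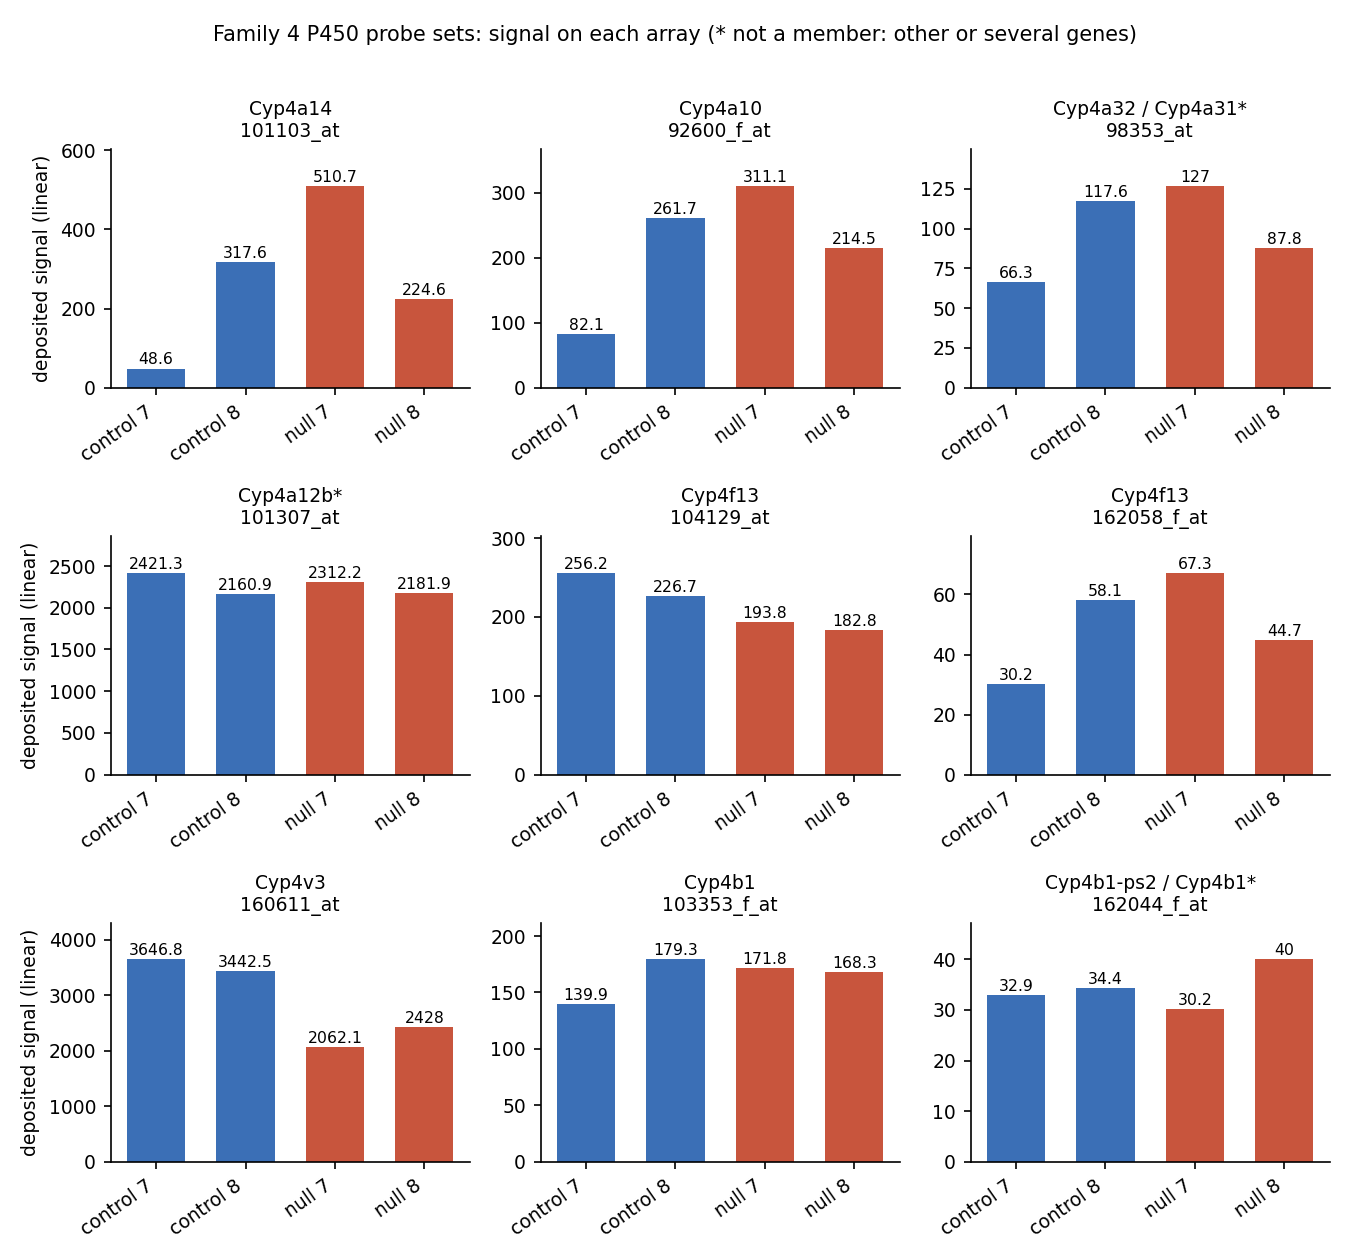
Deposited signal (linear scale) of each family 4 probe set on each of the 4 arrays, control in blue and null in red; an asterisk marks probe sets of another family 4 gene or of several genes. The 2 null bars of Cyp4v3, at 2062 and 2428, stand below both control bars, whereas those of Cyp4a14 and Cyp4a10 stand on both sides of control replicate 8.

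Cyp4v3, the mouse counterpart of human CYP4V2, is an omega hydroxylase of fatty acids whose human gene is mutated in Bietti crystalline dystrophy, a disease of the retina. Its signal was 3647 and 3443 on control replicates 7 and 8, and 2062 and 2428 on null replicates 7 and 8. Both null arrays lay below both control arrays, and the arrays of each genotype lay closer to each other than to those of the other genotype. The means were 3545 ± 144 in control and 2245 ± 259 in null liver (SD, n = 2 each). The log2 change was -0.66 ± 0.10 (SE), with a 95% interval of -0.89 to -0.43 before adjustment, and the adjusted p of 0.0551 in limma missed the threshold. By its p the probe set ranked 36 of 7241. The difference between the control arrays (control 8 minus control 7) was -0.08 on the log2 scale and that between the null arrays 0.24, both smaller than the change. With the arrays scaled to the same median the change was -0.73 (adjusted p = 0.0384 in limma), and with quantile normalization it was -0.68 (adjusted p = 0.0432). With the mean of a gene's probe sets, tested over genes, it was at the same -0.66 and passed as well (adjusted p = 0.0438). In the main setting the value lay near the threshold, and most of the alternatives did not call it. In limma the adjusted p was 0.374 without the filter on dim probe sets and 0.408 without the intensity trend. The adjusted p ranged from 0.0384 to 0.497 over the alternatives. Whole liver was measured, in which fewer cells of a type and less RNA per cell cannot be told apart. Of 9 tested hepatocyte markers such as albumin and transthyretin 0 passed in limma, with a median log2 change of -0.20. At an unadjusted p under 0.05, 5 of the 9 were lower, against 6.93% of all genes, and the null arrays lay below for 7 of the 9, against 24%. Their summed signal was 45236 and 44108 in control and 41953 and 39950 in null liver, and their part in the Cyp4v3 difference was not tested.

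Cyp4f13 belongs to the subfamily that acts on leukotrienes and long-chain fatty acids. Its brighter probe set read 256 and 227 in control and 194 and 183 in null liver, in the order of replicates 7 and 8. The null arrays were the lower pair, without overlap. The log2 change was -0.36 ± 0.14 (SE) and did not pass (adjusted p = 0.361 in limma). Its dimmer probe set, an _f_at set of a kind that can also bind related transcripts, read 30.2 and 58.1 in control and 67.3 and 44.7 in null liver. Here the groups overlapped and the sign was opposite, at 0.39 ± 0.37 (adjusted p = 0.718). Without control replicate 7 the dimmer probe set was at -0.08. The probe sets of Cyp4f13 therefore disagreed in direction, and the order of the arrays on the dimmer probe set (control 7 lowest, null 7 highest) was that of the Cyp4a probe sets described further on.

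The start regions of these 2 genes are shown because theirs were the probe sets whose null arrays lay below the control arrays. Promoters (RefSeq, GRCm38.p6) run from 250 bases before to 50 bases after the start of the gene, and 4 of the 6 genes had an entry, with none for Cyp4a10 or Cyp4a14. Cyp4v3 lies at chr8:45333114-45333413 and Cyp4f13 at chr17:32947312-32947611, both on the minus strand and printed 5′ to 3′ along the gene, with motif matches in capitals.
Cyp4v3: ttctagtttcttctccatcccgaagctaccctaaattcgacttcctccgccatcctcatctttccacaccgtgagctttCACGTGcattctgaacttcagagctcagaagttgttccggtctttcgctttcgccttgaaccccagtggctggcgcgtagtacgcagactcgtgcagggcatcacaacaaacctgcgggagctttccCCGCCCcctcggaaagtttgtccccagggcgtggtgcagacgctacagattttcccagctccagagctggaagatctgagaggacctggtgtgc
Cyp4f13: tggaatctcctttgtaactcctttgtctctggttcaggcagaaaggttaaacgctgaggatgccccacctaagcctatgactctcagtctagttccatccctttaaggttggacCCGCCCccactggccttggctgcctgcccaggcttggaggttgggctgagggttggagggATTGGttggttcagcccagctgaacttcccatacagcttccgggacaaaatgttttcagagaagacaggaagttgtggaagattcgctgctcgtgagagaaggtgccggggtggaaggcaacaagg
Motifs were searched on both strands. A GC box was searched as the letters GGGCGG, and it occurred in 35.7% of 32851 promoter windows. The E-box, to which clock factors can bind, was searched as CACGTG and occurred in 7.15% of windows. The Cyp4v3 window held a GC box on the opposite strand at bases -44 to -39 from the start and an E-box at -171 to -166. The CCAAT box was searched under the letters of its name and occurred in 37.4% of windows. The Cyp4f13 window held a GC box at -136 to -131 and a CCAAT box at -76 to -72, both on the opposite strand. The Cyp4b1 window held a GC box at -120 to -115, also on the opposite strand. The receptor core element was searched as AGGTCA and occurred in 16.3% of windows. The direct repeat DR1, the kind bound by PPAR-alpha with its partner RXR, was searched as that element repeated with 1 base between, so it contains the shorter one, and it occurred in 0.0396% of windows. A TATA box was searched as TATAAA and occurred in 13.6% of windows. None of the last 3 was found in the windows of Cyp4v3, Cyp4f13 or Cyp4b1, which says only that these letters are not there.

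Cyp4a10 and Cyp4a14 are the inducible omega hydroxylases of medium and long-chain fatty acids in mouse liver. Cyp4a14 read 48.6 on control replicate 7, 318 on control replicate 8, 511 on null replicate 7 and 225 on null replicate 8. The lowest array was a control and the highest a null array, but control replicate 8 lay above null replicate 8, so that the groups overlapped. The means were 183 ± 190.2 in control and 368 ± 202 in null liver (SD, n = 2 each), and the log2 change was 1.45 ± 0.81 (SE, adjusted p = 0.520 in limma). The 95% interval of the fold ran from 0.712 to 10.4. Control replicate 8 stood 6.53-fold above control replicate 7, and null replicate 7 stood 2.27-fold above null replicate 8. Among the 7241 probe sets tested, 5 had a larger difference between the control arrays. Among the 1673 tested probe sets at least as bright, 0 did.

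Cyp4a10 had the same order of arrays. Its signals were 82.1 and 262 on control replicates 7 and 8 and 311 and 215 on null replicates 7 and 8. Again control replicate 8 lay between the null arrays. The means were 172 ± 127 in control and 263 ± 68.3 in null liver (SD, n = 2 each), with a log2 change of 0.82 ± 0.50 (SE, adjusted p = 0.551 in limma) and a 95% interval of the fold from 0.778 to 3.99. Control replicate 8 was 3.19-fold above control replicate 7, a difference exceeded by 96 of the 7241 probe sets and by 3 of the 1756 at least as bright. The probe set of Cyp4a10 is an _f_at set, which can also bind related Cyp4a transcripts.

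Both Cyp4a values rested on control replicate 7. Without it the log2 change of Cyp4a14 was 0.09 and that of Cyp4a10 was -0.02. Without control replicate 8 they were 2.80 and 1.65, neither of them past the threshold (adjusted p = 0.119 and 0.120 in limma). Without null replicate 7 they were 0.85 and 0.55, and without null replicate 8 they were 2.04 and 1.09. Null replicate 7, the highest array of both genes, also carried the signal of pancreatic acinar genes, which liver should lack. The summed signal of the 8 acinar markers with a probe set was 3058 there, against 277 and 389 on the control arrays and 247 on null replicate 8, and 0 of the 8 lay at or below the floor on all arrays. Its part in the Cyp4a values was not tested.

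**Figure D2:**
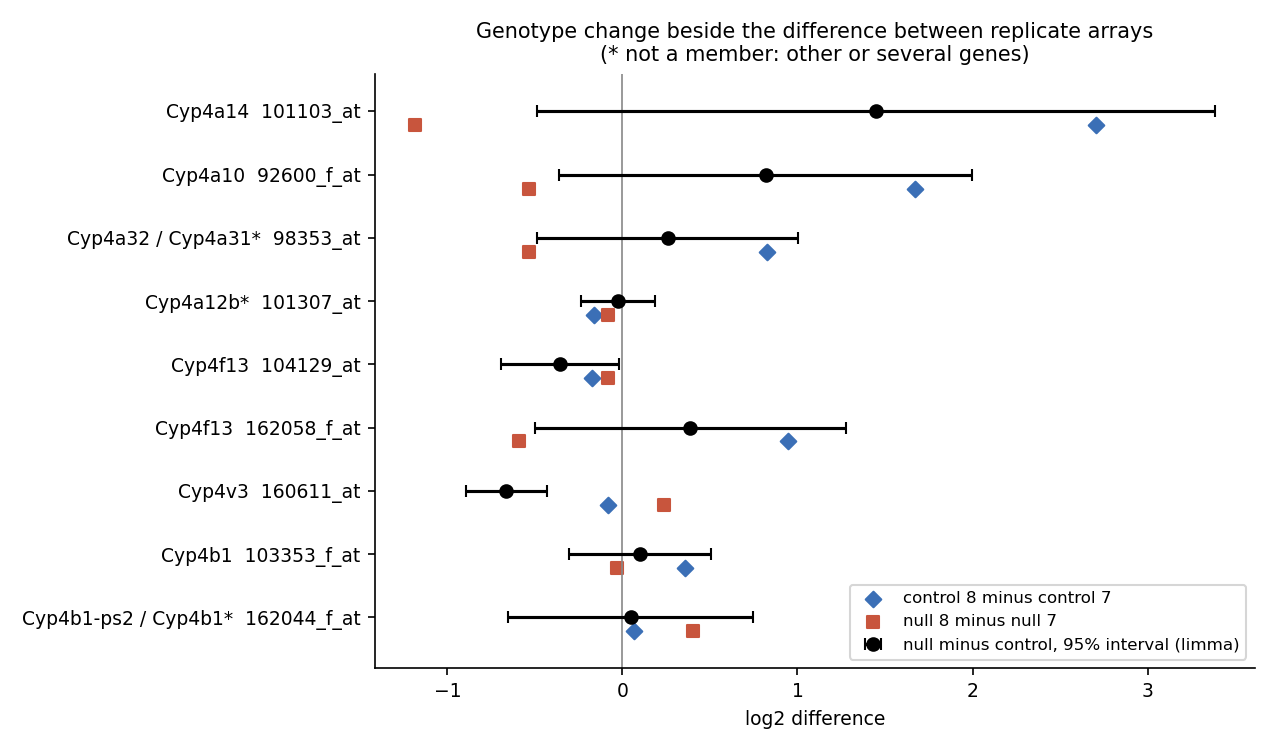
Log2 change of each family 4 probe set between genotypes (null minus control, black, with the 95% interval from limma) beside the log2 difference between the control arrays (blue diamonds) and between the null arrays (red squares). For Cyp4a14 and Cyp4a10 the control difference, at 2.71 and 1.67, exceeds the change, whereas for Cyp4v3 the interval of -0.89 to -0.43 lies beyond both replicate differences.

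Other probe sets of the Cyp4a cluster differed in how far they shared this order of arrays. A probe set that the annotation assigns to both Cyp4a31 and Cyp4a32, neighbours of Cyp4a10 in the same gene cluster of the GRCm38.p6 gene table, read 66.3 and 118 in control and 127 and 87.8 in null liver. Its arrays stood in the same order as those of Cyp4a10 and Cyp4a14, with a smaller range and a log2 change of 0.26 ± 0.31 (SE). Cyp4a12b, of the same cluster and with a near-identical neighbour in Cyp4a12a that its probe set may not separate, read 2421 and 2161 in control and 2312 and 2182 in null liver. These 4 values overlapped and lay close together, with a log2 change of -0.03 ± 0.09 (SE, adjusted p = 0.939 in limma) and a 95% interval of the fold from 0.849 to 1.14. The root mean square difference between 2 probe sets over the 4 arrays, each centred on its own log2 mean, was 0.53 between Cyp4a14 and Cyp4a10 and 0.41 between Cyp4a10 and the shared Cyp4a31 and Cyp4a32 probe set. From Cyp4a12b it was 1.31 to Cyp4a14, 0.79 to Cyp4a10 and 0.41 to the shared probe set, which was at 0.92 from Cyp4a14. By this measure the shared probe set lay as far from Cyp4a10 as from Cyp4a12b.

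Cyp4b1 is best known from lung and kidney, where it activates plant and fungal protoxins. Its probe set, also an _f_at set that can bind related transcripts, read 139.9 and 179 in control and 172 and 168 in null liver. Both null arrays lay between the control arrays. The log2 change was 0.10 ± 0.17 (SE, adjusted p = 0.846 in limma), with a 95% interval of the fold from 0.811 to 1.42, and it was -0.08 without control replicate 7. A second probe set, assigned to Cyp4b1 and the pseudogene Cyp4b1-ps2 together, read 32.9 and 34.4 in control and 30.2 and 40 in null liver, with a log2 change of 0.05 ± 0.29 (SE). Of the lung epithelial markers 1 of 5 with a probe set was bright enough to be tested. The summed lung marker signal was 69.8 and 68.5 in control liver, 46 on null replicate 7 and 195 on null replicate 8, and 0 of the 5 lay at or below the floor on all arrays. For kidney proximal tubule the sum over 7 markers was 84.9 and 67.1 in control liver, 56 on null replicate 7 and 176 on null replicate 8, with Miox, Slc22a6 and Umod at or below the floor on all arrays. Their part in the Cyp4b1 signal was not tested.

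The spread between replicates differed among the family 4 probe sets. The absolute difference between the control arrays lay at the 99.9 percentile of all probe sets tested for Cyp4a14 and at the 98.7 percentile for Cyp4a10. For Cyp4v3 it lay at the 23.6 percentile and for the brighter Cyp4f13 probe set at the 44.6 percentile, while the dimmer Cyp4f13 probe set lay at the 94.4 percentile and Cyp4b1 at the 70.8 percentile. Between the null arrays Cyp4a14 lay at the 95.7 percentile, the dimmer Cyp4f13 probe set at the 83.7 percentile, Cyp4a10 at the 80.9 percentile and Cyp4v3 at the 50.4 percentile.

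The genes nearest in pattern were named for each probe set by the same root mean square measure over the 4 arrays, among the other genes tested. For Cyp4v3 they were Rbbp4 (0.04), Saa4 (0.04) and Xpot (0.04), none past the threshold. Rbbp4, a histone-binding protein, read 354 and 340 in control and 214 and 236 in null liver. For the brighter Cyp4f13 probe set they were Gtf2a2, Slc3a2 and Setd6 (0.01 to 0.02), for the dimmer one Recql5, Vax1 and Mms19 (0.02 to 0.06), and for Cyp4b1 Smagp, Trav9d-3 and Usp22 (0.01 to 0.02). For Cyp4a10 they were Ptpn6, Ifitm2 and H2-DMb2 (0.12 to 0.13). For Cyp4a14 they were Barx1, Slfn2 and Tcp11, at a larger distance of 0.36 to 0.41. The nearest genes of Cyp4a10 and Cyp4a14 were all dim, between 5.7 and 54.4 on any array. With 4 arrays such likeness describes the order and size of 4 centred values and little more.

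The electron donors were measured through 6 of 8 listed genes. By their brightest probe sets 0 of the 6 passed in limma, with 0 at an unadjusted p under 0.05. Over all genes 0.399% passed (0.309% higher and 0.0907% lower) and 13.4% had an unadjusted p under 0.05. The null arrays lay above the control arrays for 4 of the 6 and below for 2, against 20.9% and 24% of all genes. The mitochondrial ferredoxin Fdx1 was at a log2 change of 0.17 ± 0.08 (SE), cytochrome b5 (Cyb5a), which can hand a second electron to microsomal P450s, at 0.11 ± 0.07, and its reductase Cyb5r3 at -0.05 ± 0.08. The haem-binding P450 partner Pgrmc1 was at 0.13 ± 0.08 and Cyb5r1 at 0.43 ± 0.31 on one dim probe set and at -0.47 ± 0.31 on another. The outer mitochondrial form Cyb5b was at -0.20 ± 0.10 on its brighter probe set and at 0.55 ± 0.21 on the other. That other probe set, not counted above, had an unadjusted p of 0.0343 and an adjusted p of 0.346 in limma.

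Of the enzymes after omega hydroxylation 11 of 12 genes were tested and 0 passed in limma, with 2 higher and 2 lower at an unadjusted p under 0.05 against 6.46% higher and 6.93% lower of all genes. The median log2 change was -0.02, beside -0.01 over all genes tested. Aldh3a2, the fatty aldehyde dehydrogenase that follows the P450 step, read 462 and 588 in control and 1012 and 986 in null liver. Its null arrays lay well above its control arrays, with a log2 change of 0.94 ± 0.14 (SE, adjusted p = 0.0551 in limma). It passed with quantile normalization (adjusted p = 0.0440) but not with the arrays scaled to the same median. A dimmer probe set of Aldh3a2 was at 0.84 ± 0.23. Aldh1a1 was at 0.42 ± 0.08 and the bile acid and fatty acid CoA ligase Slc27a5 at -0.57 ± 0.15. The alcohol dehydrogenase Adh4 was at -0.47 ± 0.15, with another probe set at -0.25 ± 0.16.

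Among peroxisomal beta oxidation genes 13 of 23 were tested and 0 passed in limma, with 6 higher and 1 lower at an unadjusted p under 0.05, against 6.46% and 6.93% of all genes. The null arrays lay above the control arrays for 7 of the 13 and below for 2, against 20.9% and 24% of all genes. The change was positive for 10 of the 13, against 48.5% of all genes. The median log2 change was 0.19, and 0.11 with the arrays scaled to the same median. Pex11a, which promotes division of peroxisomes, read 517 and 671 in control and 1137 and 1007 in null liver, giving a log2 change of 0.86 ± 0.15 (SE, adjusted p = 0.0803 in limma). Control replicate 7 was its lowest array and null replicate 7 its highest, as for Cyp4a10, but its groups did not overlap. The carnitine acetyltransferase Crat was at 0.90 ± 0.16, with another probe set at -0.25. The thiolase Acaa1b was at 0.22 ± 0.07, with a dimmer probe set at 0.46 ± 0.11. The sterol carrier Scp2 was at -0.28 ± 0.08, with another probe set at -0.04.

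The list of PPAR-alpha and other targets also holds the receptor's partner Rxra, so it is not made of targets alone. Of its 23 genes 13 were tested and 0 passed in limma. At an unadjusted p under 0.05, 2 were higher and 1 was lower, against 6.46% and 6.93% of all genes. The null arrays lay above for 8 of 13 and below for 1, against 20.9% and 24% of all genes, and the median log2 change was 0.39. Apoa4, an apolipoprotein, read 631 and 364 in control and 1454 and 1748 in null liver, giving a log2 change of 1.73 ± 0.25 (SE, adjusted p = 0.0538 in limma), and here control replicate 8 was the lowest array. Its adjusted p was 0.0431 with quantile normalization and 0.0399 with the mean of a gene's probe sets, in limma. It did not pass with the arrays scaled to the same median, another floor or none, no filter or no intensity trend. Without control replicate 7, the higher of its control arrays, the log2 change was 2.13. Fabp1, the fatty acid binding protein of liver, was at -0.21 ± 0.08, Pdk4, which restrains glucose oxidation, at 1.24 ± 0.48 on a dim probe set, and the malonyl-CoA decarboxylase Mlycd at 0.28 ± 0.12. Ppara itself, named after its values were seen, read 939 and 945 in control and 964 and 713 in null liver, giving a log2 change of -0.19 ± 0.15. Its 3 highest arrays lay close together and did not follow the order of the Cyp4a arrays.

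The control arrays of this list differed in the same direction as those of the Cyp4a genes, by less. Control replicate 8 lay above control replicate 7 for 10 of the 13 genes, against 51.5% of all genes, with a median log2 difference of 0.31 beside 0.01 over all genes. Control replicate 7 was the lowest of the 4 arrays for 8 of the 13, against 26.2% of all genes, and null replicate 7 the highest for 4 of the 13, against 21.5%. The list and these counts use the same arrays as the Cyp4a values. None of the 13 differed by more than 2-fold in that direction, as did 2.43% of all genes and both Cyp4a10 and Cyp4a14. Vnn1, a pantetheinase, and Angptl4, an inhibitor of lipoprotein lipase, named after their values were seen, were at 142 and 268 and at 109.6 and 186 on control replicates 7 and 8. For the peroxisomal list control replicate 8 was above for 8 of 13 (median 0.09), and for mitochondrial beta oxidation for 10 of 14 (median 0.08). Without control replicate 7 the median change of the PPAR-alpha list was 0.16 in place of 0.39, and with the floor at the 50th percentile it was 0.10.

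**Figure D3:**
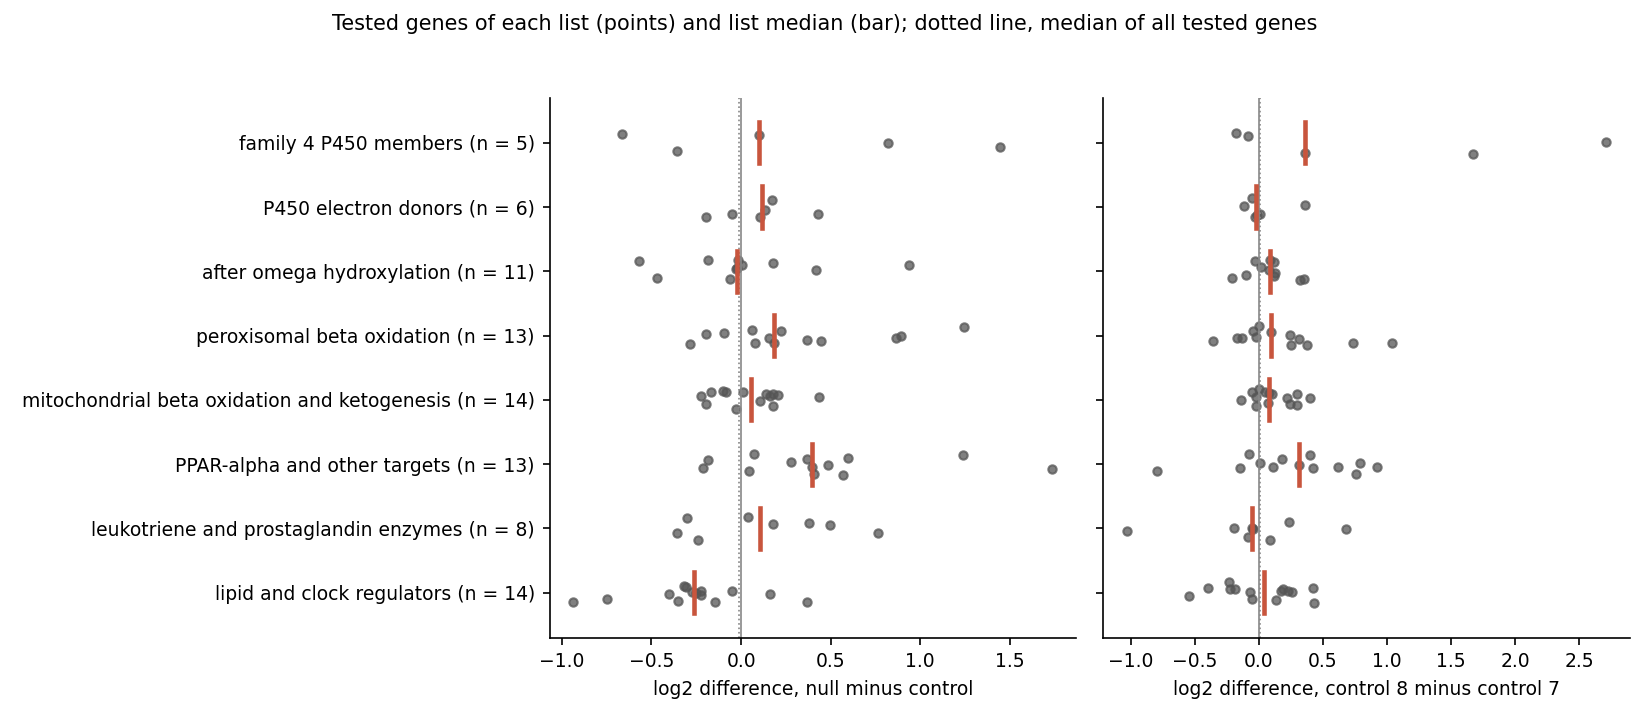
Log2 difference of each tested gene (points) by list, with the list's median (red bar) and the median of all genes tested (dotted line), for null minus control (left) and for control replicate 8 minus control replicate 7 (right). The family 4 genes spread from -0.66 to 1.45 on the left, and Cyp4a10 and Cyp4a14 stand apart on the right at 1.67 and 2.71.

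Mitochondrial beta oxidation and ketogenesis had 14 of 19 genes tested, of which 0 passed in limma. At an unadjusted p under 0.05, 1 was higher and 0 lower, against 6.46% and 6.93% of all genes. The median log2 change was 0.06. It was -0.01 with the arrays scaled to the same median and -0.05 without control replicate 7. Eci1, an enoyl-CoA isomerase, was at 0.43 ± 0.14 (SE), the carnitine palmitoyltransferase Cpt1a at 0.18 ± 0.08, Decr1, a dienoyl-CoA reductase, at 0.21 ± 0.12 and the electron carrier subunit Etfb at -0.19 ± 0.09, with a dimmer probe set at 0.25 ± 0.33.

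Enzymes that make or break leukotrienes and prostaglandins were listed beside the Cyp4f genes, with the leukotriene receptor Ltb4r1 and epoxide hydrolases Ephx1 and Ephx2. Of these 18 genes 14 had a probe set, 8 were tested and the other 6 were too dim. None passed in limma, 2 were higher and 1 was lower at an unadjusted p under 0.05, against 6.46% and 6.93% of all genes. The median log2 change was 0.11, which was 0.036 with the arrays scaled to the same median and 0 with the floor at the 50th percentile. The microsomal epoxide hydrolase Ephx1 was at 0.38 ± 0.09 (SE), the soluble epoxide hydrolase Ephx2 at -0.30 ± 0.10, the thromboxane synthase Tbxas1 at 0.76 ± 0.29 and Ptgr1, which can inactivate leukotriene B, at 0.50 ± 0.34 on a dim probe set. Of 13 tested macrophage and Kupffer cell markers 1 passed in limma (Mpeg1, higher), against 0.309% of all genes higher. The change was positive for 12 of the 13, against 48.5%, and the null arrays lay above for 10, against 20.9%. The summed signal over 14 markers was 2869 and 2832 in control and 3549 and 3879 in null liver. The part of these markers in the Tbxas1 values was not tested.

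Among 16 lipid and clock regulators 14 were tested and 0 passed in limma, with 3 lower and 0 higher at an unadjusted p under 0.05, against 6.93% and 6.46% of all genes. The median log2 change was -0.26, and the null arrays lay below for 7 of 14, against 24% of all genes. Srebf1, which drives fatty acid synthesis genes, was at -0.94 ± 0.14 (SE, adjusted p = 0.0551 in limma). It passed with quantile normalization (adjusted p = 0.0431) and with the mean of a gene's probe sets (0.0438). With the arrays scaled to the same median it did not. Tef, a clock output factor, was at -0.75 ± 0.16, the hepatocyte factor Cebpa at -0.32 ± 0.07 and the xenobiotic receptor CAR (Nr1i3) at -0.22 ± 0.11, with its other probe sets at -0.18 and 0.08.

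Over the whole chip the 4 arrays were alike in scale, with median signals of 26.1 to 28.4 and 24.7% to 25.6% of probe sets at or below the floor. The mean trimmed by 2% was 100.1 on each array, so this likeness is partly set by the authors' scaling. Over probe sets, which are no independent replicates, the log2 signals of the control pair correlated at 0.97 and those of the null pair at 0.96. The labels call the results of both experiments the same, while 0.829% of control and 0.91% of null values were identical between replicates. Hepatocyte markers read 1114 or more on each array, as the labelled tissue requires. Of the marker lists, the pericentral gene Oat (1 of 8 tested) and the macrophage gene Mpeg1 (1 of 13) rose past the threshold. The periportal gene Hal (1 of 6) fell past it. Over all genes 0.309% passed as higher and 0.0907% as lower. Pericentral markers had a median log2 change of 0.01 over 8 genes. Periportal markers had a median of -0.31, with a negative change for 5 of 6, against 51.5% of all genes. The null arrays lay below for 4 of the 6, against 24%. At an unadjusted p under 0.05, 3 of the 6 were lower and 0 higher, against 6.93% and 6.46% of all genes.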

How the data were processed

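Liver RNA was measured on 4 MG_U74Av2 arrays. The deposited values are an intensity per probe set on a linear scale, which the authors obtained in GCOS and scaled by total fluorescence of the chip, per the labels; its version, target value and detection calls: not given in the sources used here. Signals were floored at 7.1 (25th percentile of all signals), converted to log2 and not normalised again; dim genes are therefore understated. Probe sets with a mean above log2 of 16.8 (40th percentile) were tested, 7241 of 12422 that are not controls, with limma 3.58.1 in R 4.3.3 (lmFit, eBayes with intensity trend, 4.78 prior and 2 residual degrees of freedom), two-sided, Benjamini-Hochberg over all probe sets, threshold 0.05. Intervals of 95% are from this fit and not adjusted. An exact permutation test of 2 against 2 arrays cannot go below p = 0.333. Precision is limited by the number of arrays. The labels name no batch.

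Names came from the platform table, updated by gene identifier to the GRCm38.p6 gene table (10817 of 10833 probe sets with 1 symbol matched; 396 carried several symbols and 1193 are unnamed here). In lists a gene stands for its brightest tested probe set. The members, lists and tests were chosen with earlier results of these data known. Named genes were all members, further family 4 genes and electron donors, up to 4 genes of smallest p per list, list genes past the threshold and the 3 nearest in pattern per probe set. The replicate numbers 7 and 8 recur in both genotypes, but the deviations of same-numbered arrays correlated at -0.03 over probe sets, so the numbers were not taken as pairs. The steps were tested on simulated data.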

Additional observations from a re-analysis of the deposited data

How the results depend on the processing

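With 2 arrays per genotype each array weighs heavily. Cyp4a14, the brighter Cyp4f13 probe set and Cyp4v3 kept their sign under all 12 alternatives; Cyp4a10 (-0.0187), Cyp4b1 (-0.0765) and the dimmer Cyp4f13 probe set (-0.0831) turned sign without control replicate 7, the cause of which was not tested, and kept it under the other 11. Leaving out 1 array gave log2 changes of -0.02 to 1.65 for Cyp4a10, 0.09 to 2.80 for Cyp4a14, -0.08 to 0.28 for Cyp4b1, -0.44 to -0.27 and -0.08 to 0.86 for Cyp4f13 and -0.78 to -0.55 for Cyp4v3. In limma 10 to 13 probe sets were then higher and 0 to 4 lower, in place of 22 and 6 (unadjusted p under 0.05: 328 to 451 higher and 236 to 509 lower), and 0 to 1 higher list genes. The replicate number as a block left Cyp4v3 at -0.66 and past the threshold (adjusted p = 0.0479), as did the same median (-0.73) and quantile normalization (-0.68), so that 1 family 4 probe set passed under each of these 3 and 0 under the other 9. With the mean of a gene's probe sets, tested over genes, Cyp4v3 passed too (adjusted p = 0.0438). The block gave 37 higher and 15 lower probe sets and changed no other family 4 call. With quantile normalization 12 probe sets were lower. Without the filter and without the trend there were 0 higher and 0 lower in limma (566 and 642, and 407 and 340, at an unadjusted p under 0.05), and with the floor at the 50th percentile, which lets all 12422 probe sets pass the filter, 0 and 1. Of the list genes, Cyp4v3 included, 2 were higher and 2 lower with quantile normalization and with the block (Aldh3a2 and Apoa4 higher, Cyp4v3 and Srebf1 lower, in both), 0 and 1 with the same median, and 1 and 2 with the mean of a gene's probe sets. The control difference of Cyp4a14 lay between 2.37 and 2.71 under the other scalings and floors. The same-median scaling moved the median of all probe sets from -0.01 to -0.08.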

Other observations

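The size of the Cyp4a difference between the control arrays was shared by few genes of like brightness, which are named here after their values were seen. Among probe sets at least as bright as Cyp4a10, those with a larger control difference were Cyp4a14, Mir686 and Rgs16. Rgs16, a regulator of G protein signalling, read 121 on control replicate 7, 443 on control replicate 8, 239 on null replicate 7 and 159.6 on null replicate 8. It shares the low control replicate 7 with the Cyp4a genes, while its highest array was control replicate 8. The probe set named Mir686 read 96.5 on control replicate 7 and 330.3 to 371 on the other arrays. Among all tested probe sets the largest control difference was that of Dmbt1, a mucosal scavenger receptor protein, at 8.8 on control replicate 7, 119 on control replicate 8, 84.3 on null replicate 7 and 121 on null replicate 8.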
